A study of Homo sapiens with 12 samples.

Results

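MYC, its dimerization partner MAX and the related factors MXD1, MXD3, MXD4, MXI1, MNT and MLX, together with the MYC-binding protein MYCBP, were examined in HCT116 cells, a human colorectal carcinoma line, after knockdown of the nuclear receptor LRH-1. The members were these 9 genes, chosen by name, with all probes that the platform table assigns to them by symbol. The 9 genes were measured by 14 of the 16381 probes, and all 9 were found among 7452 named genes. Of all probes, 6467 carry no symbol, and any member probe among them would be missed. Expression was read on 12 HumanHT-12 v4 arrays (Illumina), 4 in each of 3 groups. Cells received 5 nM siRNA for 24 h, which was siLUC (a control against luciferase), siLRH-1 #1 or siLRH-1 #2. All groups were thus transfected cells of 1 line, and no untransfected group was used here. The methods describe the 4 samples of a group as independent biological replicates. The LRH-1 transcript itself, NR5A2, was not analysed here, and the extent of the knockdown is not part of these values.

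MYC, MAX and their relatives are basic helix-loop-helix leucine zipper proteins that bind E-box DNA as dimers. MYC paired with MAX activates genes of growth and ribosome biogenesis, whereas MXD1, MXI1, MXD3, MXD4 and MNT compete for MAX and recruit SIN3 and histone deacetylases to the same elements. MLX pairs with the glucose-sensing Mondo proteins and with some MXD factors. In colonic epithelium MYC is a target of Wnt and β-catenin signalling and is high in the proliferating crypt, and MXD1 is known from differentiating cells.

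The deposited values were log2 intensities, quantile-normalized by the authors, and changes are given as differences of mean log2 values. A probe was called when limma's adjusted p over all probes was under 0.05. Array medians lay between 6.49 and 6.50, and arrays of 1 group correlated at 0.996 to 0.997. Of the colonic epithelium markers, 5 of 7 were measured, with mean log2 values of 12.54 for KRT19, 12.12 for EPCAM and 11.55 for KRT8. With siLRH-1 #1, 2 of the 5 rose (EPCAM 0.22, CDH1 0.31) and 2 fell (KRT8 −0.23, KRT18 −0.25). Over all genes, each on its brightest probe, 11.2% rose and 12.3% fell. With siLRH-1 #2, 0 of the 5 were called in limma, and 2 higher and 1 lower had an unadjusted p under 0.05, a threshold not counted over all genes. The measured fibroblast (3 of 6) and leukocyte markers (2 of 5) had mean values between 5.97 and 6.33, where the 5th percentile of all probes was 5.92, and 0 of them were called or had an unadjusted p under 0.05. Within the groups, the sign of the first principal component of the brighter probes split the arrays into a set of 7 and a set of 5 (siLUC replicate 2, siLRH-1 #1 replicate 3 and siLRH-1 #2 replicates 2, 3 and 4), which no label names. Values were centred on their group means first, so such a split always puts arrays of every group in both sets. The score of siLRH-1 #1 replicate 1 lay close to the cut (−0.04). Whether the arrays of a set share a state across groups was not tested. Values with the sets as a block or within each set are given where they bear on a call.

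The promoter sequences were searched for the E-box that the members' own proteins bind and for the core of the element that LRH-1 binds. RefSeq sequence (GRCh38.p14) of the 250 bases before the start was at hand for 8 of the 9 genes, in 12 windows, and MYC was not among them. The E-box CACGTG, which reads the same on both strands, was found in the windows of MXD4, MNT and MLX, and 6.34% of 35116 windows of this length held it. CAAGGNC is a loose form of the core of the site bound by an LRH-1 monomer, with any base at N. Searched on both strands, it was found for MXD1, MXD3 and MLX, beside 14% of all windows. The full consensus of LRH-1 sets the bases on either side of this core and takes only C or T at N. It was in 0 of the 12 windows, beside 2.16% of all windows. Matches of these motifs did not overlap each other, and a match is a description of letters, not a bound site. The windows of MXD1 and MXD3 are shown because their transcripts moved with siLRH-1 #1, one up and one down, and that of MLX because it alone held both motifs. They lie at chr2:69914859-69915108 (MXD1, plus strand), chr5:177312753-177313002 (MXD3, minus strand) and chr17:42566850-42567099 (MLX, plus strand), read 5′ to 3′ on the gene's strand, with the matches in capitals.
MXD1: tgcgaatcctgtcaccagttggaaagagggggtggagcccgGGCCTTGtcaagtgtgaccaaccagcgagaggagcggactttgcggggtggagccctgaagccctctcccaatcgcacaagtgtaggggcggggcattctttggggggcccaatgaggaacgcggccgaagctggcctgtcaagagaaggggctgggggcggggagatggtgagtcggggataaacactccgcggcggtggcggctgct
MXD3: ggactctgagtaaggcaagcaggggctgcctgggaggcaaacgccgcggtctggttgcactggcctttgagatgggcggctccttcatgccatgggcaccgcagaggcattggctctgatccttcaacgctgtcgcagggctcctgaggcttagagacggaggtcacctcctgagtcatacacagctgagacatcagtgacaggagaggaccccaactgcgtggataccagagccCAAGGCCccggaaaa
MLX: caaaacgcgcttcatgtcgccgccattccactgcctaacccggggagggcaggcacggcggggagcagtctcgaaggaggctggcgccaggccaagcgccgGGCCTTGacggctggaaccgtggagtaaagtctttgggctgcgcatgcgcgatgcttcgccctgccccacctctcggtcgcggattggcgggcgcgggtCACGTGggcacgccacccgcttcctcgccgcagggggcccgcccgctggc
In MXD3 the match ends 9 bases before the start on the gene's own strand. In MXD1 it lies 209 to 203 bases before the start on the opposite strand. In MLX the E-box lies 50 to 45 bases before the start, and the CAAGGNC match, on the opposite strand, 149 to 143 bases before it.

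MYC, the activating member, was lower with both siRNAs on both of its probes, which the platform table assigns to the same transcript. The study, from the same arrays, also lists both MYC probes as lower with both siRNAs. On the brighter probe, the log2 intensities were 12.21, 12.28, 12.06 and 12.10 with siLUC, 11.76, 11.72, 11.97 and 11.86 with siLRH-1 #1, and 11.76, 11.86, 11.68 and 11.85 with siLRH-1 #2. Every one of the 8 knockdown arrays lay below every siLUC array. The means were 12.16 ± 0.0994, 11.83 ± 0.109 and 11.79 ± 0.0837 (SD, n = 4 each). The change was −0.33 with siLRH-1 #1 (95% interval −0.47 to −0.19, adjusted p = 0.00119), and siLRH-1 #2 gave −0.37 (−0.51 to −0.23, adjusted p = 0.00146) in limma, or 0.796 and 0.775 of the siLUC level on the linear scale. Both calls held when each of the 12 arrays was left out in turn.

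The dimmer MYC probe gave the same order of groups with a smaller change. Its values were 10.47, 10.69, 10.52 and 10.58 with siLUC, 10.40, 10.34, 10.41 and 10.19 with siLRH-1 #1, and 10.26, 10.31, 10.25 and 10.30 with siLRH-1 #2. Again no knockdown array reached the lowest siLUC array, and siLRH-1 #2 showed the narrowest spread. The change was −0.23 with siLRH-1 #1 (adjusted p = 0.0141), and siLRH-1 #2 gave −0.28 (adjusted p = 0.00825). These calls were less firm than those of the brighter probe. Without siLUC replicate 2, the highest siLUC array on both MYC probes, the dimmer probe had an adjusted p of 0.0639 for siLRH-1 #1 and of 0.0548 for siLRH-1 #2. Without siLRH-1 #1 replicate 4 it was 0.0688 with siLRH-1 #1. In bulk RNA, less MYC transcript per cell and fewer cells that express it cannot be told apart.

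**Figure D1:**
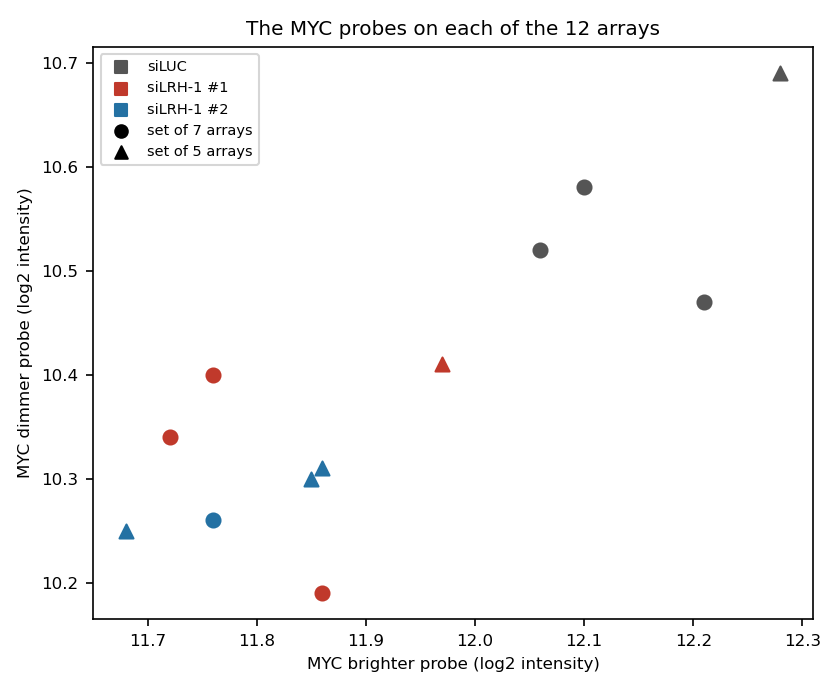
Log2 intensity of the brighter MYC probe (x axis) and of the dimmer MYC probe (y axis) on each of the 12 arrays, with colour for the siRNA and shape for the set of 7 or of 5 arrays. The 4 siLUC arrays, at 12.06 or more on the x axis and 10.47 or more on the y axis, lie above and to the right of all 8 knockdown arrays.

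The siRNAs could not be told apart in their change of MYC. The difference, siLRH-1 #1 minus siLRH-1 #2, was 0.04 on the brighter probe (95% interval −0.10 to 0.18, adjusted p = 0.820) and 0.05 on the dimmer one (−0.08 to 0.18, adjusted p = 0.724). Both siRNAs were set against the same 4 siLUC arrays, so their changes are not independent of each other. In the set of 7 arrays, where siLRH-1 #2 has 1 array, the brighter probe was at −0.34 with siLRH-1 #1 (adjusted p = 0.0072) and at −0.36 with siLRH-1 #2 (adjusted p = 0.105). In the set of 5, where siLUC and siLRH-1 #1 have 1 array each, the values were −0.31 (adjusted p = 0.306) and −0.48 (adjusted p = 0.0427). The direction was the same in both sets. An arm of 1 array is assumed to vary like the others, so the p values of these arms say little about firmness.

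MYC was the only member called with both siRNAs. Its probes made up the 2 of 14 member probes called lower with both, where 1.39% of all probes were called lower with both and 3.24% were called in the same direction. They were also the 2 member probes on which all knockdown arrays lay below all siLUC arrays, a pattern found for 2.5% of all probes. In limma 0 member probes were called higher with both siRNAs (1.86% of all probes), and 0 had an unadjusted p under 0.05 for a rise with siLRH-1 #2.

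The other called members, MAX, MXD3, MXI1 and MXD1, passed the threshold with siLRH-1 #1 alone, and the test of the siRNAs against each other is given after the members. With siLRH-1 #1, 7 of 14 member probes were called (17.2% of all probes), of which 6, from 4 genes, fell (9.12% of all probes) and 1 rose (8.05%). With siLRH-1 #2, 2 of 14 were called (5.71%), both of MYC and both lower (2.85%), and 0 were called higher (2.86%). At an unadjusted p under 0.05 in limma the siLRH-1 #2 count was 4 lower and 0 higher. The share of all probes at that threshold was not counted, so nothing is read from it. The arrays of siLRH-1 #1 and siLUC did not overlap on 8 member probes (19.4% of all probes), and those of siLRH-1 #2 and siLUC on 2 (11.5%). Of the member probes, 9 had a mean log2 value between 6 and 7, as did 7349 probes in all. In this dim band 5 of the 9 were called with siLRH-1 #1 against 8.78% of all its probes, and 0 with siLRH-1 #2 against 1.7%. The median change over the 14 probes with siLRH-1 #1 was −0.13, that with siLRH-1 #2 −0.07, beside 0.005 and −0.001 over all probes.

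**Figure D2:**
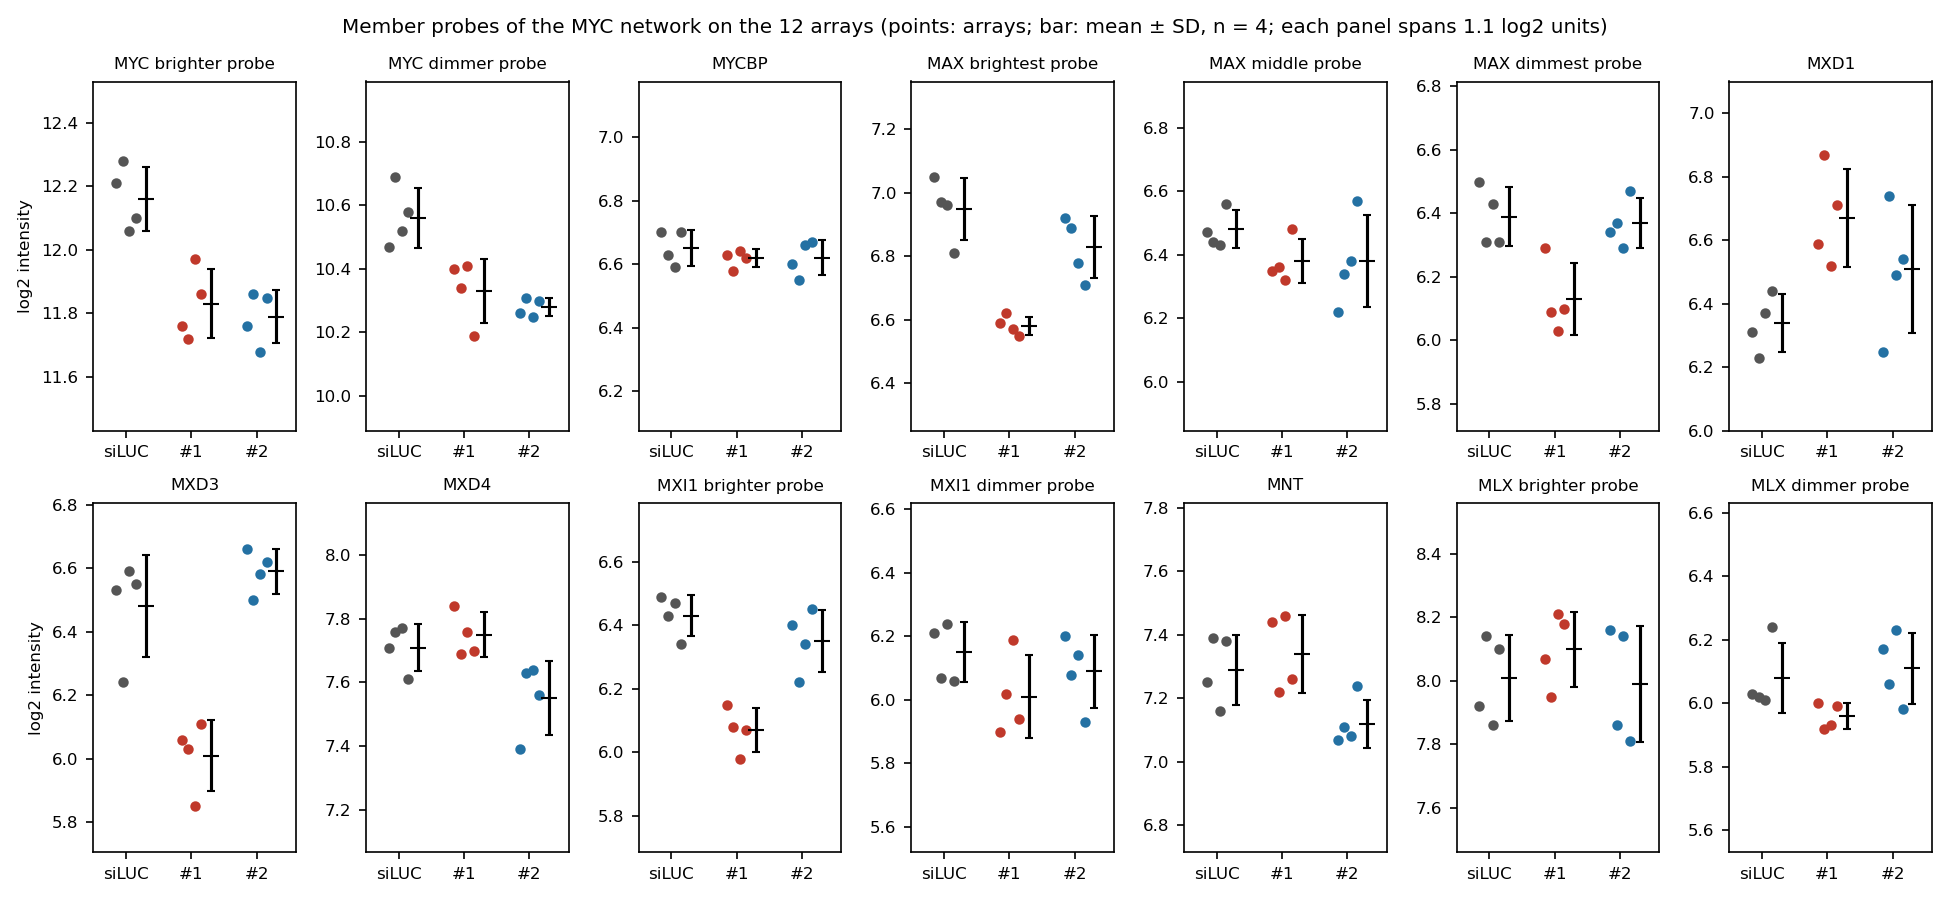
Log2 intensity (y axis, each panel spanning 1.1 log2 units) of the 14 member probes on the 4 arrays of siLUC, siLRH-1 #1 and siLRH-1 #2, with points for arrays and bars for mean ± SD. The 4 siLRH-1 #1 arrays lie apart from the siLUC arrays for MYC, the brightest and dimmest MAX probes, MXD1, MXD3, the brighter MXI1 probe and the dimmer MLX probe.

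MAX, the partner that MYC and the MXD proteins need to bind DNA, was lower with siLRH-1 #1 on 2 of its 3 probes, which the platform table assigns to different transcripts. The brightest read 7.05, 6.97, 6.96 and 6.81 with siLUC, 6.59, 6.62, 6.57 and 6.55 with siLRH-1 #1, and 6.92, 6.89, 6.78 and 6.71 with siLRH-1 #2. The siLRH-1 #1 arrays formed a tight cluster below all others, whereas siLRH-1 #2 overlapped siLUC. The change was −0.37 with siLRH-1 #1 (adjusted p = 0.000204), and siLRH-1 #2 gave −0.12 (adjusted p = 0.338). The dimmest MAX probe read 6.50, 6.31, 6.43 and 6.31 with siLUC, 6.29, 6.09, 6.03 and 6.10 with siLRH-1 #1, and 6.34, 6.37, 6.29 and 6.47 with siLRH-1 #2. Here siLRH-1 #1 was again below siLUC on every array, although its highest array (6.29) came close to the lowest siLUC arrays (6.31). Its change was −0.26 with siLRH-1 #1 (adjusted p = 0.009), and siLRH-1 #2 gave −0.02 (adjusted p = 0.919). The middle MAX probe was not called, at −0.10 with either siRNA (adjusted p = 0.388 and 0.507), so the probes of this gene did not give 1 answer.

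MXD3, an MXD repressor known in mouse from proliferating cells, gave the largest change of the 14 probes with siLRH-1 #1. The probe was dim, with a mean of 6.36 over all arrays, and its siLRH-1 #1 arrays lay near the 5th percentile of all probes, 5.92. It read 6.53, 6.24, 6.59 and 6.55 with siLUC, 6.06, 6.03, 5.85 and 6.11 with siLRH-1 #1, and 6.66, 6.50, 6.58 and 6.62 with siLRH-1 #2. All siLRH-1 #1 arrays lay below the rest, and siLUC replicate 2 was the lowest of the other arrays. The means were 6.48 ± 0.16, 6.01 ± 0.111 and 6.59 ± 0.0709 (SD, n = 4 each). The change was −0.46 with siLRH-1 #1 (adjusted p = 7.89e-05), and siLRH-1 #2 gave 0.11 (adjusted p = 0.485). A block for the array sets gave 0.22 with siLRH-1 #2 (adjusted p = 0.0439), a call that the fit without the block did not make.

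MXI1, a repressor that also pairs with MAX, fell on 1 of its 2 probes, which were dim (means of 6.28 and 6.08 over all arrays). The brighter read 6.49, 6.43, 6.47 and 6.34 with siLUC, 6.15, 6.08, 5.98 and 6.07 with siLRH-1 #1, and 6.40, 6.22, 6.34 and 6.45 with siLRH-1 #2. As for MXD3, the siLRH-1 #1 arrays lay below both other groups. The change was −0.36 with siLRH-1 #1 (adjusted p = 0.00022), and siLRH-1 #2 gave −0.08 (adjusted p = 0.582). The dimmer probe, assigned to another transcript, was at −0.13 (adjusted p = 0.253) and −0.06 (adjusted p = 0.774), with overlapping arrays.

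MXD1, the repressor of differentiating cells, was the 1 member that rose. It read 6.31, 6.23, 6.37 and 6.44 with siLUC, 6.59, 6.87, 6.52 and 6.71 with siLRH-1 #1, and 6.25, 6.74, 6.49 and 6.54 with siLRH-1 #2. Every siLRH-1 #1 array lay above every siLUC array, and siLRH-1 #2 spread from within siLUC (replicate 1) to well above it (replicate 2). The change was 0.34 with siLRH-1 #1 (adjusted p = 0.0077), and siLRH-1 #2 gave 0.17 (adjusted p = 0.318). When the variance of MXD1 alone was used, without limma's moderation, the adjusted p for siLRH-1 #1 was 0.0797. In the set of 7 arrays the siLRH-1 #2 value, from its replicate 1 alone, was −0.12.

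MNT, MXD4, MLX and MYCBP were not called against siLUC. MNT, the widely expressed MAX-binding repressor, read 7.25, 7.39, 7.16 and 7.38 with siLUC, 7.44, 7.22, 7.46 and 7.26 with siLRH-1 #1, and 7.07, 7.11, 7.08 and 7.24 with siLRH-1 #2. MXD4, another MAX-binding repressor, read 7.71, 7.76, 7.77 and 7.61 with siLUC, 7.84, 7.69, 7.76 and 7.70 with siLRH-1 #1, and 7.39, 7.63, 7.64 and 7.56 with siLRH-1 #2. Both were lower on average with siLRH-1 #2, by values within the overlap with siLUC. MNT was at 0.05 and −0.17 (adjusted p = 0.717 and 0.191), and MXD4 at 0.03 and −0.16 (adjusted p = 0.802 and 0.198), with siLRH-1 #1 and #2. MLX, the Mondo partner, was at 0.10 and −0.01 on its brighter probe (adjusted p = 0.517 and 0.964) and at −0.12 and 0.03 on its dimmer probe (adjusted p = 0.276 and 0.863). MYCBP, which binds MYC and is no member of the zipper family, kept all 12 values between 6.55 and 6.70, with changes of −0.04 and −0.03 (adjusted p = 0.737 and 0.851).

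**Figure D3:**
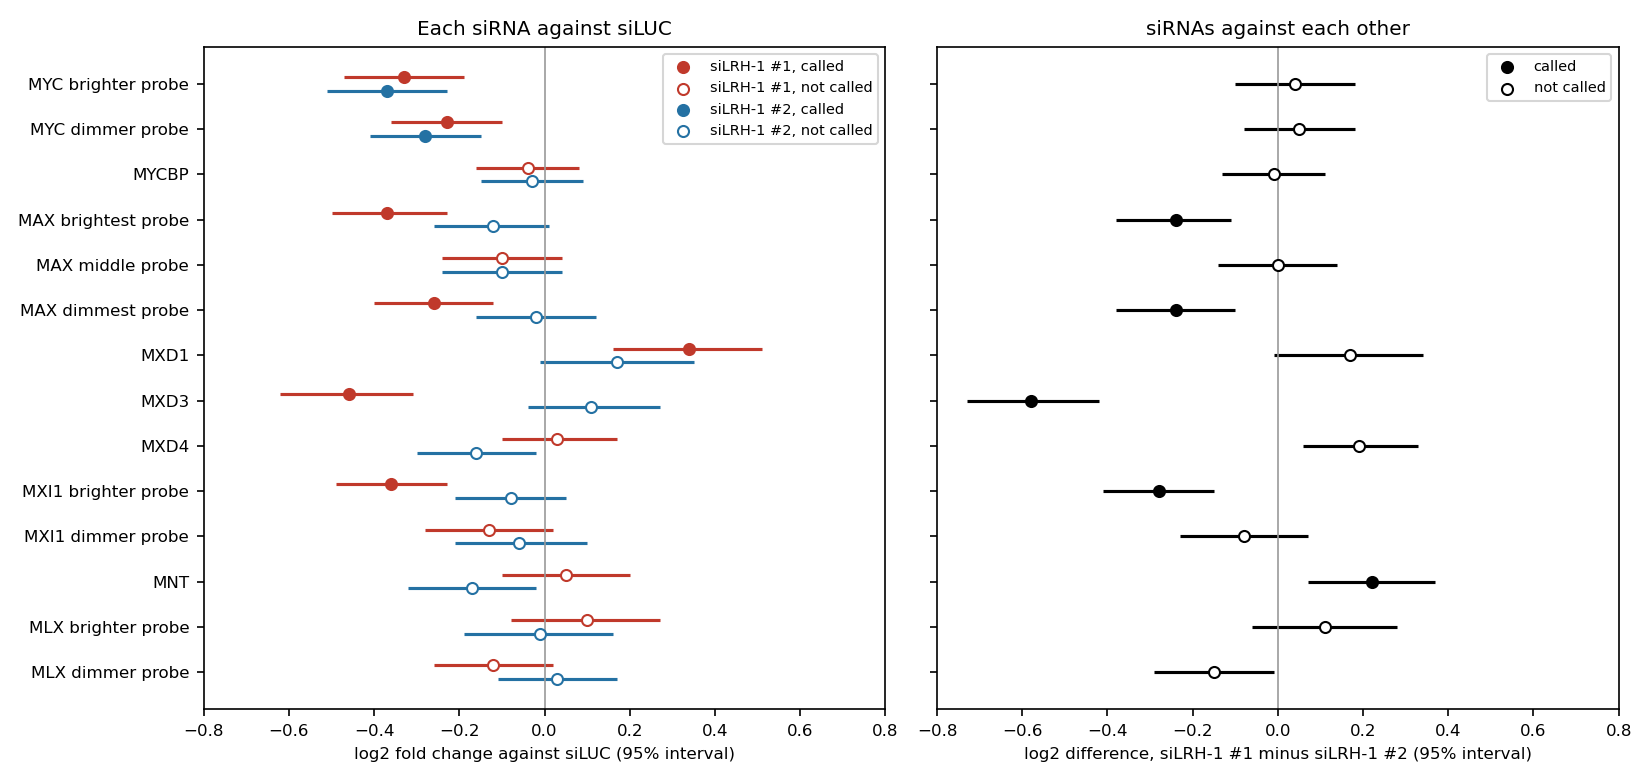
Log2 fold change of each member probe with either siRNA against siLUC (left) and log2 difference of siLRH-1 #1 minus siLRH-1 #2 (right), with 95% intervals from limma, filled points where the adjusted p was under 0.05. The MYC probes are the 2 called with both siRNAs, and MXD3 has the largest difference between the siRNAs, at −0.58.

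Compared directly, the siRNAs differed on 5 of 14 member probes (12.6% of all probes), 4 lower with siLRH-1 #1 (6.79%) and 1 higher (5.84%). The lower ones were MXD3 at −0.58 (adjusted p = 9.43e-06), the brighter MXI1 probe at −0.28 (adjusted p = 0.00376), and the brightest and dimmest MAX probes at −0.24 each (adjusted p = 0.0121 and 0.0215). MNT was higher with siLRH-1 #1 than with siLRH-1 #2, by 0.22 (adjusted p = 0.0404). MXD3 and the brighter MXI1 probe kept their calls with each array left out in turn. Within the sets of 7 and 5 arrays, where 1 of the siRNAs has a single array, the MXD3 difference was −0.60 and −0.71 (adjusted p = 0.00147 and 0.000873). That of the brighter MXI1 probe was −0.30 and −0.35 and was called in neither set (adjusted p = 0.121 and 0.0862). The other calls lay close to the threshold and were lost in some fits that left out 1 array. Over these fits the value ranged from −0.28 to −0.21 for the brightest MAX probe and from −0.29 to −0.20 for the dimmest. That of MNT ranged from 0.18 to 0.26. The brightest MAX probe had an adjusted p of 0.0608 without siLRH-1 #2 replicate 1. The dimmest MAX probe lost its call without siLRH-1 #1 replicate 2, 3 or 4 or siLRH-1 #2 replicate 4, with adjusted p between 0.052 and 0.0981. MNT lost its call without siLRH-1 #1 replicate 1 or 3 or siLRH-1 #2 replicate 1, 2 or 3, with adjusted p between 0.0804 and 0.17.

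The arrays of the siRNAs did not overlap on 4 member probes (15.9% of all probes), namely the brightest MAX probe, MXD3, the brighter MXI1 probe and MXD4. The MXD4 difference of 0.19 was not called (adjusted p = 0.0595), though it was with a minimum mean log2 value of 7, where fewer probes were tested (adjusted p = 0.0241), and with the sets as a block (adjusted p = 0.0195). In the fit to all arrays no difference between the siRNAs was called for MXD1 (0.17, 95% interval −0.01 to 0.34, adjusted p = 0.261). The MXD1 difference was not stable over the sets. It was 0.47 in the set of 7, with 1 array of siLRH-1 #2, and −0.07 in the set of 5, with 1 of siLRH-1 #1.

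The genes around the network were read on the brightest probe of each of 7452 genes, of which 11.2% rose and 12.3% fell with siLRH-1 #1, and 4.41% rose and 3.97% fell with siLRH-1 #2. The share of all genes with an unadjusted p under 0.05 was not counted. List counts at that threshold thus have no background beside them. Of 44 genes commonly induced by MYC, 21 were measured. With siLRH-1 #1, 3 fell and 0 rose, and with siLRH-1 #2, 0 were called in limma (2 higher and 2 lower at an unadjusted p under 0.05, 1 and 0 without siLUC replicate 2, and 0 and 0 without siLRH-1 #2 replicate 1). The median change was −0.02 and −0.03, beside 0.006 and 0.003 over all genes. Other probes of the listed genes were not read. EIF4A1 of this list was uncalled at −0.14 and −0.06, whereas the study lists another EIF4A1 probe as lower with both siRNAs. AHCY, which hydrolyses S-adenosylhomocysteine, carried the largest value of this list. It read 12.12, 11.92, 11.98 and 12.24 with siLUC, 11.36, 11.43, 11.29 and 11.39 with siLRH-1 #1, and 12.07, 11.92, 11.93 and 11.95 with siLRH-1 #2. Only the siLRH-1 #1 arrays stood below siLUC, by −0.70 (adjusted p = 8.61e-08), and siLRH-1 #2 was at −0.10 (adjusted p = 0.530). BOP1, a ribosome assembly factor, and GART, an enzyme of purine synthesis, were at −0.18 each with siLRH-1 #1 (adjusted p = 0.0351 and 0.0342), and each call held in 7 of 12 fits that left out 1 array. The fits that lost a call all left out a siLUC or siLRH-1 #1 array. Those without a siLRH-1 #2 array leave the change itself as it was. The glycolytic enzyme ENO1 and the chaperonin HSPD1 were at −0.02 and −0.03 with siLRH-1 #1 and at 0.00 and 0.05 with siLRH-1 #2, uncalled.

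Of 12 genes known to be repressed by MYC, 9 were measured. With siLRH-1 #1, 1 rose and 1 fell, and with siLRH-1 #2, 2 rose and 0 fell in limma (5 higher and 0 lower at an unadjusted p under 0.05, and 3 and 0 without siLUC replicate 2). Over all genes 11.2% rose and 12.3% fell with siLRH-1 #1, and 4.41% rose and 3.97% fell with siLRH-1 #2. The median change of the list was 0.03 and 0.15. CDKN1B, which encodes the cyclin-dependent kinase inhibitor p27, read 8.02, 7.94, 8.20 and 8.04 with siLUC, 7.99, 8.16, 7.69 and 7.98 with siLRH-1 #1, and 8.67, 8.41, 8.41 and 8.32 with siLRH-1 #2. All siLRH-1 #2 arrays stood above all others, a change of 0.41 (adjusted p = 0.00445), and the difference between the siRNAs was −0.50 (adjusted p = 0.000262). Leaving out siLUC replicate 2 and siLRH-1 #2 replicate 1 together gave 0.30 (adjusted p = 0.147), and with the probe's own variance the adjusted p was 0.094. CDKN1A, which encodes p21, rose with both siRNAs, by 0.42 and 0.45. It is also a p53 target, and the paper reports that p21 did not rise where p53 was deleted or knocked down. A part of MYC in this rise was not tested. NDRG2 was at −0.22 with siLRH-1 #1 (adjusted p = 0.0312, and 0.0901 with its own variance), a call that held in 8 of 12 fits with 1 array left out. The fits that lost it all left out a siLUC or siLRH-1 #1 array. Without siLUC replicate 2 the count of this list that fell with siLRH-1 #1 was 0, and with the sets as a block the count that rose with siLRH-1 #2 was 4. GADD45A and NDRG1 were at 0.05 and 0.04 with siLRH-1 #1 and at 0.24 and 0.15 with siLRH-1 #2, uncalled.

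Among 20 partners of MYC and factors of its turnover, 10 were measured, with 3 higher and 2 lower for siLRH-1 #1 and 1 higher for siLRH-1 #2 (medians 0.07 and 0.10). The shares over all genes were 11.2% higher and 12.3% lower with siLRH-1 #1 and 4.41% higher with siLRH-1 #2. CIP2A, which protects MYC protein from degradation, was the 1 called with both. It read 8.70, 8.48, 8.62 and 8.60 with siLUC, 8.89, 8.96, 8.83 and 8.89 with siLRH-1 #1, and 9.04, 8.92, 8.95 and 8.91 with siLRH-1 #2. Each knockdown array was above each siLUC array, with changes of 0.29 (adjusted p = 0.00142) and 0.35 (adjusted p = 0.000912). HCFC1, a chromatin cofactor that binds MYC, was at −0.27 with siLRH-1 #1 (adjusted p = 0.0137, but 0.075 without siLUC replicate 1 and 0.0686 with its own variance) and at 0.10 with siLRH-1 #2. The acetyltransferase KAT5 was at −0.26 (adjusted p = 0.00741) and −0.05. FBXW7, of the ubiquitin ligase that marks MYC, and the kinase AURKA were at 0.18 and 0.17 with siLRH-1 #1 (adjusted p = 0.0392 and 0.0372), calls that held in 7 and 6 of 12 fits with 1 array left out. Again the fits that lost these calls all left out a siLUC or siLRH-1 #1 array. Without siLUC replicate 2 the count of higher genes of this list was 1 with siLRH-1 #1. Between the siRNAs, 3 of the 10 were lower with siLRH-1 #1 (9.89% of all genes) and 1 was without siLRH-1 #2 replicate 1. KAT2A, another acetyltransferase, was among the 3 at −0.21 (adjusted p = 0.0452), a call that held in 5 of 12 fits with 1 array left out and was lost with a replicate block (0.0632) and with its own variance (0.106).

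The Mondo arm of the network was read through 4 of 6 relatives of MYC and Mondo and 2 of 4 of its target genes. MLXIPL, the Mondo factor ChREBP, read 6.91, 6.88, 7.27 and 6.97 with siLUC, 6.45, 6.53, 6.55 and 6.61 with siLRH-1 #1, and 6.89, 6.92, 6.78 and 6.92 with siLRH-1 #2. It was below siLUC on all siLRH-1 #1 arrays, by −0.47 (adjusted p = 5.47e-05), and at −0.13 with siLRH-1 #2 (adjusted p = 0.379). The arrestin-domain gene ARRDC4, induced by Mondo and MLX, moved the other way. It read 6.07, 6.14, 6.04 and 6.07 with siLUC, 6.86, 6.87, 6.84 and 7.14 with siLRH-1 #1, and 6.02, 6.76, 6.22 and 6.26 with siLRH-1 #2. The siLRH-1 #1 arrays stood above all others, with a change of 0.85 (adjusted p = 1.67e-06). With siLRH-1 #2 the change was 0.23 (adjusted p = 0.223), with replicate 2 far above its other arrays. The siLUC values of ARRDC4 lay within the range of the fibroblast and leukocyte markers, 5.97 to 6.33. Signal above background was not checked there, so the size of its change is uncertain. The siRNAs differed by −0.34 on MLXIPL (adjusted p = 0.00251) and by 0.61 on ARRDC4 (adjusted p = 0.000178). KLF10, also a target of Mondo proteins, was at 0.11 and 0.06, and MGA and MYCBP2 at −0.09 and 0.02 with siLRH-1 #1, uncalled. The relatives had a median of −0.04 and −0.06 and the targets of 0.48 and 0.15, beside 0.006 and 0.003 over all genes. With 2 targets measured, their median is the midpoint of ARRDC4 and the uncalled KLF10 and describes no wider set.

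The SIN3 and histone deacetylase corepressors that MXD proteins recruit were measured for 3 of 11 genes, with 0 called by limma with either siRNA (for siLRH-1 #1, 1 lower at an unadjusted p under 0.05, and for siLRH-1 #2, 0). HDAC1 was at −0.12 and 0.02 and HDAC2 at −0.04 and −0.02. Of 8 other E-box-binding zipper factors, MITF alone was measured, at −0.04 and 0.03 and uncalled.

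**Figure D4:**
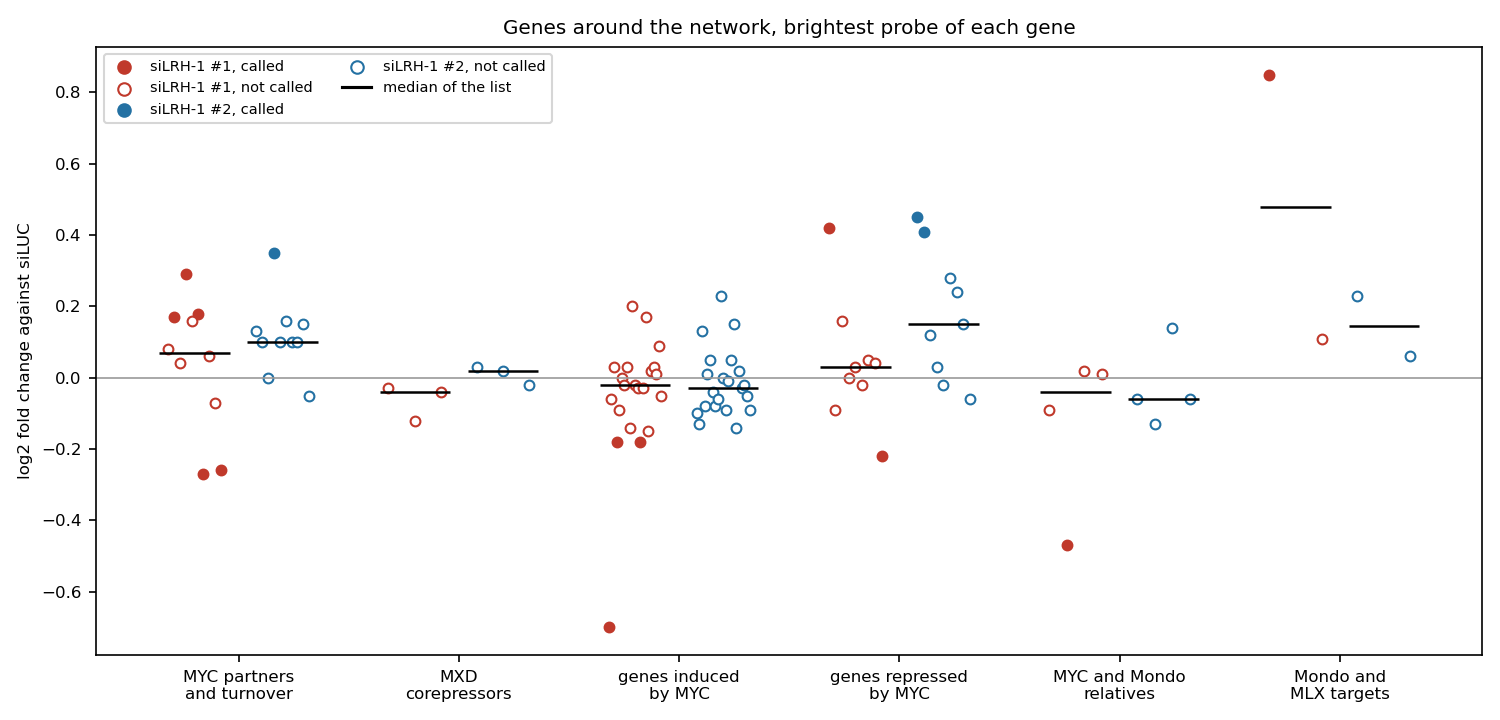
Log2 fold change against siLUC (y axis) of the measured genes of 6 lists around the network, on the brightest probe of each gene, with filled points where the adjusted p was under 0.05 and a line at the list's median. Among the genes induced by MYC, AHCY stands apart at −0.70 with siLRH-1 #1, and ARRDC4, among the Mondo and MLX targets, at 0.85.

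MYC's brighter probe was compared with 9908 named probes over the 12 arrays, as a description. The most alike were those of DHX33 (Pearson's r = 0.966), a helicase, KLK7 (0.964), a serine protease, and FYCO1 (0.946), an adaptor of autophagosome transport. Over deviations from the group means, r was 0.887, 0.844 and 0.752. The changes were −0.46 and −0.44 for DHX33, −0.32 and −0.32 for KLK7 and −0.48 and −0.63 for FYCO1 with siLRH-1 #1 and #2. These points share the siLUC arrays, the siRNA groups and the sets of arrays.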

How the data were processed

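RNA of HCT116 cells was measured on 12 arrays, 4 per siRNA group. Image data were handled in GenomeStudio by the authors, who dropped probes whose detection p exceeded 0.05 in every sample, and used Partek for quantile normalization on the log2 scale. The deposited log2 values were used as given, so a shift shared by most transcripts is hidden. The 24 columns of per-sample values in the non-normalized table carry names that no label ties to a sample and were not used. Of 16381 probes, the platform table gives 1 symbol for 9910, several for 4 and none for 6467. A gene counts as measured where a probe with its symbol was present, so a gene met only by unnamed probes was missed. The gene IDs of 9904 probes were in a RefSeq table, which changed 0 symbols.

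One model with the 3 groups was fitted to all probes with limma 3.58.1 in R 4.3.3 (9 residual and 14.6 prior degrees of freedom), with two-sided p values adjusted by the Benjamini-Hochberg method, and 0 arrays were dropped or imputed. The comparisons of each siRNA share the siLUC arrays. The fit was tested on simulated data with independent noise for each probe and array and the same effect with both siRNAs. Deviations shared by many probes of an array were not simulated, so that test does not cover them. The number of arrays limits the precision. Different probes were not set against each other in level, and plots were drawn in Python 3.11.15 with matplotlib 3.10.9.

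The members and the 11 gene lists, which hold the members, relatives of MYC and Mondo, other E-box factors, MYC partners and turnover, MXD corepressors, genes induced and repressed by MYC, Mondo and MLX targets, and colonic, fibroblast and leukocyte markers, were chosen with earlier results of these data known. The text names all members, up to 6 called genes of each list by size and up to 2 more by brightness, and the 3 probes most like MYC. EIF4A1 is named besides because of its other probe. Other settings were an unmoderated variance per probe, blocking on the replicate number, array weights, fits of the 8 arrays compared, an intensity trend, a threshold of 0.01, a minimum mean log2 value of 7, 16 added before log2, each array left out, and 2 arrays left out together. The sets of arrays as a block or alone were added after seeing the data, as were the list counts without siLUC replicate 2, without siLRH-1 #2 replicate 1 and with the sets as a block.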

Additional observations from a re-analysis of the deposited data

Results flagged for a closer look

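The dimmer MLX probe read 6.24 on siLUC replicate 4, far from the other siLUC arrays at 6.01 to 6.03. The gap made up 0.919 of the range of the group, above Dixon's 95% critical value for 4 arrays. Of 42 groups examined in this way it was the 1 that stood out, and chance gives such a gap in about 1 of 20 groups.

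On 5 member probes the effects of the siRNAs differed by limma's test of the difference itself, siLRH-1 #1 minus siLRH-1 #2. These were −0.24 for the brightest MAX probe, −0.24 for the dimmest MAX probe, −0.58 for MXD3, −0.28 for the brighter MXI1 probe and 0.22 for MNT. The 3 genes on the negative side were lower with siLRH-1 #1 than with siLUC, whereas MNT differed from siLUC with neither siRNA by the threshold used. The causes were not tested.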

How the results depend on the processing

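Over 42 member results and 24 other settings, 981 values were computed, of which 899 kept their direction and their side of the threshold, 45 lost a call, 6 gained one and 31 changed sign without being called. The 7 member probes called with siLRH-1 #1 became 2 with a mean log2 value of at least 7, which leaves fewer probes, and 0 in the set of 5 arrays, and ranged from 6 to 7 with 1 array left out. The 2 called with siLRH-1 #2 became 1 without siLUC replicate 2 and siLRH-1 #2 replicate 1 together, 0 in the set of 7 and 1 in the set of 5, and ranged from 1 to 2 with 1 array left out. The 5 that differed between the siRNAs became 3 with each probe's own variance, 2 at an adjusted p under 0.01, 2 with a mean of at least 7, 3 without the pair of arrays, 2 in the set of 7 and 1 in the set of 5, and ranged from 3 to 5. The 2 called with both became 1 at an adjusted p under 0.01, 1 without the pair of arrays and 0 in either set, and ranged from 1 to 2. Fewer arrays were fitted in these sets.

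Same-numbered arrays did not deviate together (correlations from −0.0409 to 0.0434 over 12 pairs), so the numbers were not taken as pairs. With the replicate number as a block, 7, 2, 4 and 2 member probes were called in the same order, MNT being the 1 lost (adjusted p = 0.0573).

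The signs that turned were those of uncalled values, up to 0.17 in size (MXD1 with siLRH-1 #2 and its difference). With 1 array left out, the difference between the siRNAs ranged from −0.01 to 0.07 for the brighter MYC probe, −0.03 to 0.01 for MYCBP and −0.05 to 0.06 for the middle MAX probe. With siLRH-1 #1 MXD4 ranged from −0.00 to 0.05, and with siLRH-1 #2 the dimmest MAX probe ranged from −0.06 to 0.01, the brighter MLX probe from −0.07 to 0.05 and the dimmer one from −0.01 to 0.09. In the set of 5, the values were 0.01 for MYCBP with siLRH-1 #1 and 0.01 for its difference, −0.11 for the difference of the middle MAX probe, 0.07 for the dimmest with siLRH-1 #2, −0.07 for the difference of MXD1, and 0.12 and 0.14 for the dimmer MXI1 probe with siLRH-1 #1 and its difference. In the set of 7 they were 0.00 for the difference of MYCBP, −0.12 for MXD1, 0.03 for the dimmer MXI1 probe and 0.20 for the brighter MLX probe with siLRH-1 #2, and −0.09 for the difference of the last. With 16 added before log2 the difference of the middle MAX probe was −0.00, and without the pair of arrays it was −0.05 and the dimmer MLX probe with siLRH-1 #2 −0.00. With the sets as a block the dimmest MAX probe was at 0.01 with siLRH-1 #2. The cause was not tested. Most member probes other than those of MYC lay between 6 and 7 on the log2 scale, where intensity limits what can be seen. The median of all probes was 6.48. The dimmest MAX probe (mean 6.29) and the brighter MXI1 probe (6.28) lay within the range of the fibroblast and leukocyte markers, 5.97 to 6.33. MXD3 (6.36) lay just above it. Detection p values were not used, so signal above background was not checked for these probes.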
